A study of Mus musculus with 15 samples.

Results

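The endoplasmic reticulum stress genes described here are 32 genes of the unfolded protein response, found by gene symbol among the 30281 named genes of the deposited files. All 32 were present and all 32 passed the filter on low counts, which 17136 genes passed in all. They comprise 9 chaperones and cochaperones, 5 lectin chaperones and disulfide isomerases, 4 genes of endoplasmic reticulum-associated degradation (ERAD), 3 translocation genes, 4 stress sensors and transcription factors, and 7 genes of the Atf4 branch. The members were chosen by symbol from the pathway and selected on their TMM-scaled CPM over the 5 times in these same libraries, so their levels, fold changes and calls are given as a description and support nothing by themselves. The study followed skin of C57BL/6 mice through a wounding time course by mRNA sequencing at day 0, 1, 3, 5 and 7, with 3 libraries per time. All groups share the strain, the tissue and the absence of any other labelled treatment or allele, and the age of the animals is not given in the labels. Since even the day 0 libraries carry the word wound in the labels, that time is called day 0 and not unwounded. Whether replicate libraries are different mice is not stated, so each p-value reflects the spread among these libraries alone, and that spread may be technical.

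Secreted and membrane proteins fold inside the endoplasmic reticulum with the help of chaperones, lectins and disulfide isomerases, and proteins that fail to fold are sent back to the cytosol for degradation. When unfolded proteins build up, 3 membrane sensors start the unfolded protein response: Ern1 (IRE1) splices Xbp1 mRNA, Atf6 is cut to release a transcription factor, and Eif2ak3 (PERK) slows translation while favouring translation of Atf4. The Atf6 and Xbp1 arms are known for raising chaperone and ERAD genes, and the Atf4 arm for raising genes of amino acid supply, redox balance and, under lasting stress, cell death. In skin, fibroblasts, plasma cells and sebaceous cells are known for a heavy secretory load. Splicing of Xbp1, cutting of Atf6 and translation of Atf4 were not measured by these gene-level counts.

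Library totals ran from 38062562 to 60450396 estimated counts, and levels are given as CPM, counts relative to the library total after TMM scaling (the trimmed mean of M-values). A gene was called where edgeR's quasi-likelihood test gave a Benjamini-Hochberg adjusted p under 0.05 over all 17136 genes. Calls by DESeq2, a second method run on the same counts, are given without a share over all genes. So are counts at an unadjusted p under 0.05 and most counts of calls with libraries left out. None of these counts shows by itself that these genes stand apart. Libraries of 2 times do not overlap for a gene where every library of one lies above every library of the other. Each later time was compared with the same 3 day 0 libraries, so those comparisons are not independent of each other. Day 0 replicate 1 stood apart from the other day 0 libraries for these genes. It was the highest day 0 library for 24 of 32 members (75%), against 39.3% of all genes tested. Day 5 replicate 2 and day 7 replicate 3 held 0.947% and 1.11% of their counts in 6 hair keratin genes, against 0.000589% to 0.113% in the other 13 libraries. The skin's defining markers were present: the 4 keratinocyte markers made up 0.406% to 1.22% of the counts of each library and 6 fibroblast markers 2.39% to 6.93%, and none of these 10 markers was at 0 in any library. In bulk skin, fewer cells of a type and less RNA per cell cannot be told apart.

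At day 1 the chaperones and folding enzymes among the members stood above day 0 nearly throughout. Such genes outside the members, described further below, were split: of 29 log2 fold changes 17 were positive and 12 negative. Among the 14 chaperones and folding enzymes (the chaperones, cochaperones, lectin chaperones and isomerases together), edgeR called 13 higher at day 1. Their log2 fold changes ran from 0.52 to 1.09, and that of each of the 14 was positive. All 14 had their highest mean at day 1. By day 3 each of the 14 lay wholly below its day 1 libraries. Of all 32 members, 14 were called at day 1, all of them higher, beside 4.22% of all genes tested called higher, 3.36% called lower and 7.58% called in either direction. The median log2 fold change at day 1 was 0.47 over the 32 members and 0.80 over the 14 chaperones and folding enzymes, beside -0.01 over all genes. The 3 libraries of day 1 lay above those of day 0 for 18 members and below them for 1, where 19.8% of all genes lay above and 18.1% below. At day 1, 24 of the 32 members had their highest mean, beside 22.6% of all genes tested.

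**Figure D1:**
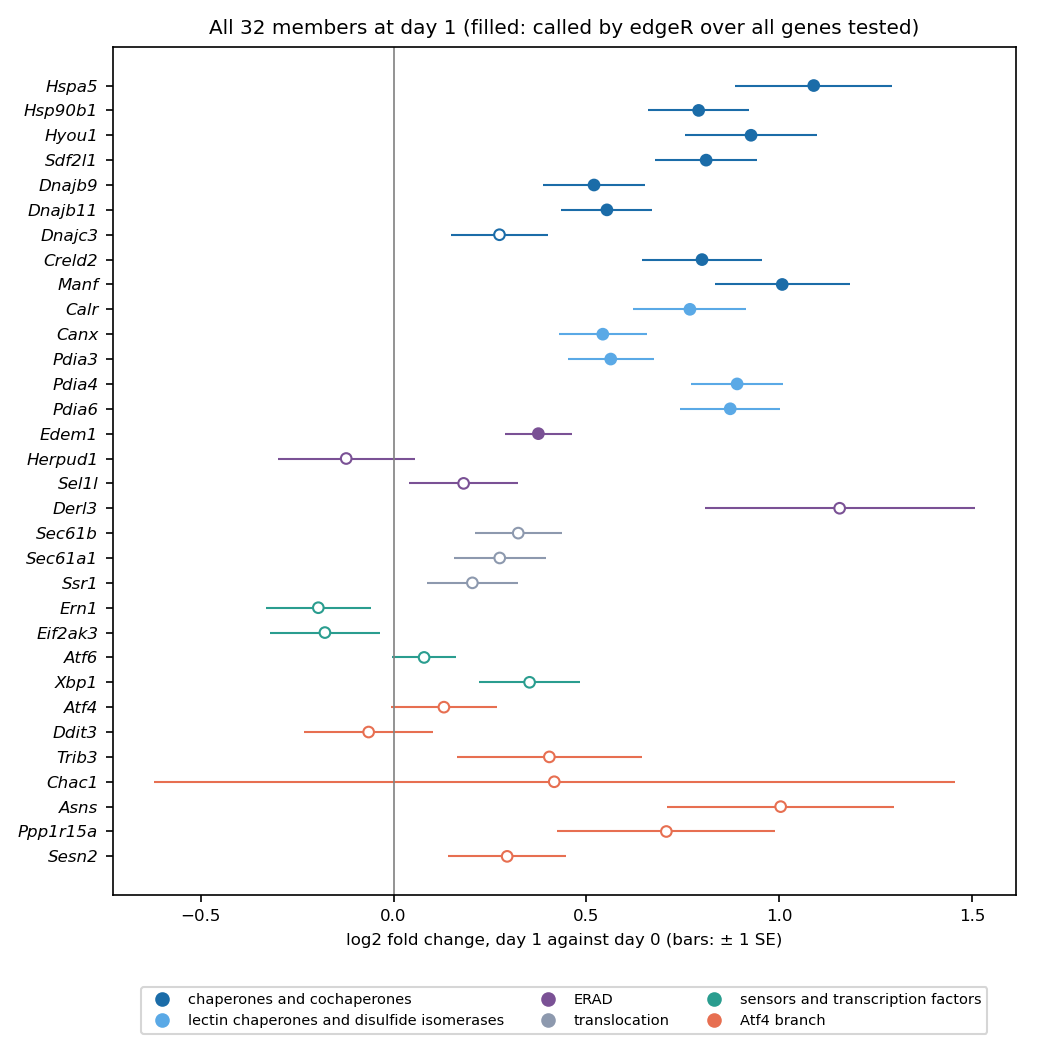
The log2 fold change of each of the 32 members at day 1 against day 0 is plotted with a bar of 1 standard error on each side, coloured by role, and filled where the gene was called. The filled points are 13 of the 14 chaperones and folding enzymes and Edem1, while no point of the Atf4 branch is filled.

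Markers of several cell types differed between day 0 and day 1 as well. The 6 fibroblast markers together made up 6.02% to 6.93% of counts at day 0 and 2.39% to 5.10% at day 1, and they did not move one way. The 3 collagen genes Col1a1, Col1a2 and Col3a1, which make up most of that sum, had day 1 libraries wholly below day 0 and were not called by edgeR. Pdgfra, the receptor that marks fibroblasts, rose from 174 ± 20.9 CPM to 424 ± 91.4 CPM (SD, n = 3), with a log2 fold change of 1.28 ± 0.20 (SE) and an adjusted p of 0.00911 by edgeR. The log2 fold changes of Dcn and Lum were -0.02 and 0.12. The 4 keratinocyte markers made up 0.406% to 0.712% of counts at day 0 and 0.541% to 1.18% at day 1, with a median log2 fold change of 0.60 and none called by edgeR. Among them were the basal keratins Krt5, with a log2 fold change of 0.79 ± 0.25 (SE), and Krt14, with one of 1.31 ± 0.37 (SE). The 5 neutrophil markers went from 0.00565% to 0.0201% of counts at day 0 to 0.0781% to 0.124% at day 1. All 5 had day 1 libraries wholly above day 0 and were called higher by edgeR, beside 4.22% of all genes. The 7 plasma and B cell markers, of a cell type known for high levels of these chaperones, made up 0.0102% to 0.0194% at day 0 and 0.00265% to 0.00631% at day 1. EdgeR called 4 of the 7 lower and 0 higher, beside 3.36% and 4.22% of all genes, and their median log2 fold change was -1.93. The 5 macrophage markers stood at 0.246% to 0.372% and then at 0.232% to 0.299%, again with a split and with none called by edgeR. Cd68 and Mrc1 had day 1 libraries wholly above day 0, each with a log2 fold change of 0.40, while the values were -0.83 for Csf1r, -0.61 for Adgre1 and -0.46 for Lyz2. The 5 sebaceous gland markers stood at 0.239% to 0.534% and then at 0.321% to 0.408%, and the 5 skeletal muscle markers at 0.599% to 0.914% and then at 0.507% to 0.715%. No marker of these lists was at 0 in any library of day 0 or day 1. The part of these cell types in the day 1 levels of the members was not tested.

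Hspa5 encodes BiP, the main Hsp70 chaperone of the endoplasmic reticulum and the usual marker of the unfolded protein response. Its levels were 528, 344 and 392 CPM at day 0 and 1008, 961 and 720 CPM at day 1. They were 396, 462 and 488 CPM at day 3, then 418, 412 and 563 CPM at day 5, and 521, 609 and 757 CPM at day 7. The day 1 libraries lay above every day 0, day 3 and day 5 library, but day 7 replicate 3 passed the lowest day 1 library. The mean went from 421 ± 95.6 CPM (SD, n = 3) to 897 ± 155 CPM (SD, n = 3), a fold change of 2.13 and a log2 fold change of 1.09 ± 0.20 (SE). At day 7 the log2 fold change against day 0 was 0.58 ± 0.20 (SE), which edgeR did not call, while DESeq2 called it, as did edgeR without day 0 replicate 1.

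Hsp90b1, the Hsp90 chaperone of the same compartment, stood at 572, 495 and 541 CPM at day 0 and at 954, 954 and 873 CPM at day 1. The groups were separate, and the log2 fold change was 0.79 ± 0.13 (SE). Hyou1, a large Hsp70 relative that acts as a nucleotide exchange factor for BiP, went from 75.9, 52.5 and 54.2 CPM to 134, 126 and 86.6 CPM, a log2 fold change of 0.93 ± 0.17 (SE). Its lowest day 1 library was still above its highest day 0 library. Both genes were back near day 0 at day 3, with log2 fold changes against day 0 of 0.16 ± 0.13 (SE) for Hsp90b1 and 0.09 ± 0.17 (SE) for Hyou1.

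Several of these promoters hold the element through which Atf6 and Xbp1 are known to act, and their sequences are shown to place that element in the 8 genes that hold it, all of them called at day 1 except Dnajc3 and Derl3. The endoplasmic reticulum stress element (ERSE) was searched on both strands as CCAAT, 9 bases of any kind and CCACG, in RefSeq windows of GRCm38.p6 from 250 bases before to 50 bases after each gene's start. It was in 39 of 32851 windows (0.119%). Of the 32 members 28 had a window, and 8 of these 28 (28.6%) held the element, among them 7 of the 12 chaperones and folding enzymes with a window. No window of the 7 Atf4 branch genes held it. The element was first defined in promoters of such chaperones, so its presence in them is no independent result. The windows with a match are given below on the gene's own strand, 5′ to 3′, with both ends of the motif in capitals. A gene whose motif reads CGTGG first carries it on the other strand.
Hspa5, chr2:34772020-34772048, plus strand: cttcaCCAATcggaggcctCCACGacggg
Hsp90b1, chr10:86705633-86705661, minus strand: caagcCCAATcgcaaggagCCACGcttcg
Hsp90b1, chr10:86705528-86705556, minus strand: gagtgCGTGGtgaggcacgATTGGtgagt
Dnajc3, chr14:118937822-118937850, plus strand: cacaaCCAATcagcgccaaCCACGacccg
Creld2, chr15:88819515-88819543, plus strand: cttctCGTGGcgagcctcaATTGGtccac
Calr, chr8:84847070-84847098, minus strand: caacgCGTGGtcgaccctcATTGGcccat
Canx, chr11:50325795-50325823, minus strand: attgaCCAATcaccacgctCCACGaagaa
Pdia6, chr12:17266486-17266514, plus strand: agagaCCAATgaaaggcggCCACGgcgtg
Derl3, chr10:75893237-75893265, plus strand: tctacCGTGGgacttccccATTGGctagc

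All of these lie before the RefSeq start, from 46 bases in Hspa5 to 193 bases in the farther of the 2 in Hsp90b1. GENCODE lists a transcript of each of these 2 genes that begins before the RefSeq start. In Hspa5 that transcript includes the element, and in Hsp90b1 both elements still lie before it. Dropping the last G of the element (a shorter motif that every full element contains) gave a match in 9 of the 12 windows and in 0.365% of all windows, and added Pdia3, Pdia4 and, outside the 12, Herpud1. The CCAAT box by itself, the part bound by the factor NF-Y, was in 12 of the 12 windows, in 21 of the 28 members and in 37.4% of all windows. The full element and the day 1 call did not always go together. Hspa5, Hsp90b1, Creld2, Calr, Canx and Pdia6 hold the element and were called. Dnajc3, the folding gene that was not called, holds one, as does Derl3, while Sdf2l1, which was called, does not. The part of the element in the calls was not tested. A match is a description of letters and not evidence of binding, and no match says only that the letters are not in this window. Sec61a1, Manf, Atf6 and Hyou1 had no window.

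Sdf2l1, a cochaperone that works with BiP and its Hsp40 partners, had the lowest day 3 level relative to day 0 of the 14. It stood at 29.3, 30.6 and 30.4 CPM at day 0 and at 56.3, 59.9 and 42.1 CPM at day 1. At day 3 it stood at 20.3, 23.8 and 19.0 CPM, at day 5 at 19.5, 23.0 and 24.0 CPM, and at day 7 at 26.6, 28.1 and 29.1 CPM. Every day 1 library was above every other library, and every library of days 3, 5 and 7 was below all 3 of day 0. The log2 fold change was 0.81 ± 0.13 (SE) at day 1 against day 0 and -1.33 ± 0.13 (SE) at day 3 against day 1. Sdf2l1 was the single gene of 17136 called between day 1 and day 3 (0.00584% of genes tested). Leaving out day 3 replicate 1 or replicate 3 ended that call, with adjusted p up to 0.068 by edgeR. Against day 0 it differed by -0.52 ± 0.13 (SE) on the log2 scale at day 3 and by -0.44 ± 0.13 (SE) at day 5. Neither was called by edgeR, and DESeq2 called both lower.

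The Hsp40 cochaperones that pass clients to BiP had smaller log2 fold changes than BiP itself. Dnajb9 went from 46.8, 41.6 and 41.0 CPM at day 0 to 71.8, 61.9 and 51.8 CPM at day 1, a log2 fold change of 0.52 ± 0.13 (SE), with no overlap. Dnajb11 went from 77.2 ± 9.37 CPM to 113 ± 14.4 CPM (SD, n = 3), a log2 fold change of 0.55 ± 0.12 (SE). Its window holds the shorter ERSE-II element (ATTGG, 1 base of any kind and CCACG, in 0.0365% of all windows), just after the RefSeq start.
Dnajb11, chr16:22857847-22857867, plus strand: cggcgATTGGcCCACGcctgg

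Dnajc3, a cochaperone also known as an inhibitor of eIF2 alpha kinases, stood at 151, 153 and 149 CPM at day 0 and at 200, 199 and 150 CPM at day 1. Day 1 replicate 3 fell inside the day 0 range, and the log2 fold change of 0.27 ± 0.13 (SE) was not called. The same library was the lowest of day 1 for all 14 chaperones and folding enzymes. Without it the median log2 fold change of the 14 was 0.89 and 13 were called, as with it.

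Manf and Creld2 encode small secreted stress proteins. Manf went from 84.3, 56.0 and 63.5 CPM at day 0 to 147, 151 and 112 CPM at day 1, a fold change of 2.01 and a log2 fold change of 1.01 ± 0.17 (SE). It then stood at 77.3, 71.6 and 77.1 CPM at day 3, at 84.6, 91.0 and 95.9 CPM at day 5, and at 103, 106 and 149 CPM at day 7. The day 7 libraries were all above day 0, day 3 and day 5, and the log2 fold change against day 0 was 0.81 ± 0.17 (SE). Manf was the single member called higher at day 7 by edgeR, which called 2 of 32 members there beside 7.05% of all genes (3.1% higher and 3.94% lower). DESeq2 called Hspa5 as well as Manf higher at day 7. The highest day 7 value came from replicate 3, the library rich in hair keratins. Manf was not called at day 7 when that library, day 0 replicate 2 or day 0 replicate 3 was left out. Creld2 stood at 30.5, 24.7 and 26.5 CPM at day 0 and at 50.9, 53.8 and 37.4 CPM at day 1, a log2 fold change of 0.80 ± 0.16 (SE) with no overlap.

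**Figure D2:**
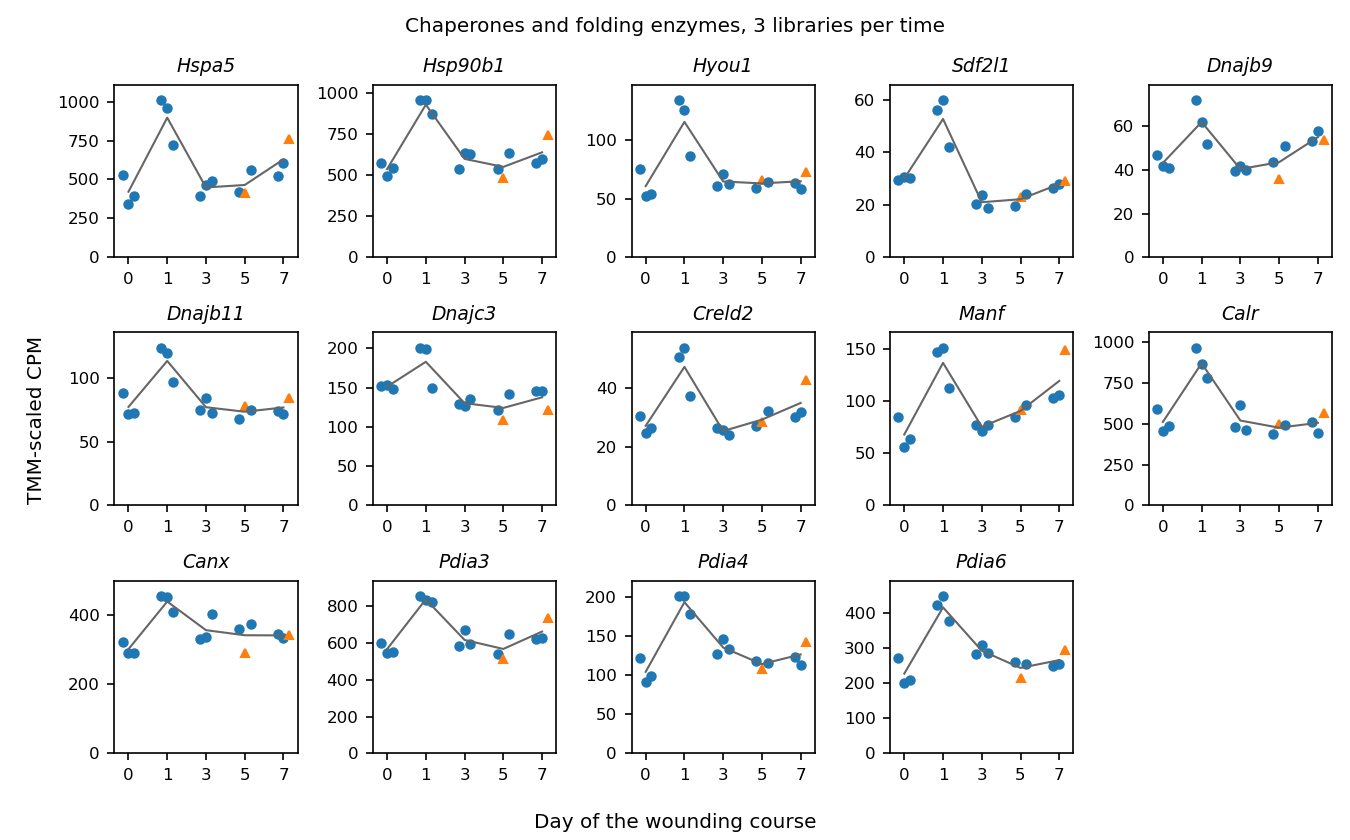
Each panel plots the scaled CPM of 1 of the 14 chaperones and folding enzymes (vertical axis from 0) by day of the wounding course, with 1 point per library and a grey line through the means. Orange triangles are the day 5 replicate 2 and day 7 replicate 3 libraries that held 0.947% and 1.11% of counts in hair keratins, and each gene has its highest mean at day 1.

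The lectin chaperones hold glycoproteins during folding, and the disulfide isomerases form and rearrange their disulfide bonds. All 5 members of this group rose at day 1. Calr, the soluble lectin, went from 587, 456 and 487 CPM to 960, 867 and 778 CPM, a log2 fold change of 0.77 ± 0.15 (SE). Canx, its membrane-bound partner, went from 323, 291 and 292 CPM to 456, 454 and 410 CPM, a log2 fold change of 0.54 ± 0.11 (SE). Pdia3, the isomerase that works with both lectins, went from 603, 546 and 554 CPM to 856, 835 and 826 CPM, a log2 fold change of 0.56 ± 0.11 (SE). No day 1 library of these 3 genes overlapped day 0.

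Pdia4 stood at 122, 91.1 and 99.2 CPM at day 0 and at 201, 201 and 178 CPM at day 1. Pdia6, which also acts on the sensors' disulfide bonds, stood at 271, 202 and 211 CPM and then at 424, 449 and 378 CPM. The log2 fold changes were 0.89 ± 0.12 (SE) and 0.87 ± 0.13 (SE), and neither gene's groups overlapped. Pdia4 was the single member called at day 1 in all 15 fits that left out 1 library each. At day 3 Pdia4 was at 135 ± 9.46 CPM and Pdia6 at 293 ± 14.1 CPM (SD, n = 3). At that time all 3 libraries of both genes were above day 0, with log2 fold changes of 0.38 ± 0.12 (SE) and 0.36 ± 0.13 (SE) that were not called.

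From day 1 to day 3 the median log2 fold change was -0.62 over the 14 chaperones and folding enzymes and -0.45 over all 32 members, beside -0.01 over all genes. All 14 had every day 3 library below every day 1 library, as had 18 of the 32 members, beside 13.2% of all genes tested. Sdf2l1 alone was called by edgeR, 17 members had an unadjusted p under 0.05, and DESeq2 called 13 members lower. No share over all genes is given beside the counts of 17 and 13, so they do not set the members apart by themselves. Against day 0, no member was called at day 3 (0.788% of all genes) or day 5 (0.502%). At an unadjusted p under 0.05 there were 6 and 5 members, and DESeq2 called 2 and 1. No member was called between days 3 and 5 (0.0233% of all genes) or days 5 and 7 (0.00584%) by edgeR or DESeq2, with 1 and 7 members at an unadjusted p under 0.05. Over the time course as a whole 16 members were called, beside 13.9% of all genes: the 14 chaperones and folding enzymes, Edem1 and Atf6.

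The number of day 1 calls depended on single libraries. Without day 0 replicate 2 it fell to 1 of 32 members, when 0.19% of all genes were called in that comparison, and 17 members kept an unadjusted p under 0.05. Leaving out day 0 replicate 3 gave 4 calls, as did leaving out day 1 replicate 1. It was 8 without day 1 replicate 2, while the fit lacking day 0 replicate 1 gave 19. Beside these other counts no share over all genes is given. They do not tell a change in the members from a change in calls over all genes. The sizes moved less. The median log2 fold change of the 14 chaperones and folding enzymes was 0.74 without day 0 replicate 2 and 0.86 without day 0 replicate 1.

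Of the ERAD genes, Edem1, a lectin that hands misfolded glycoproteins to degradation, was the member called. It stood at 110, 96.0 and 95.1 CPM at day 0 and at 130, 128 and 133 CPM at day 1, with no overlap and a log2 fold change of 0.38 ± 0.09 (SE). At day 3 it stood at 113, 130 and 110 CPM, so its day 3 libraries reached into the day 1 range. Derl3, a channel component of the pathway, was the least abundant member, with 11 to 53 estimated counts per library. Its levels were 0.354, 0.278 and 0.258 CPM at day 0 and 0.945, 0.541 and 0.513 CPM at day 1. These did not overlap, and the log2 fold change of 1.16 ± 0.35 (SE) was not called by edgeR and was called by DESeq2.

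Herpud1 and Sel1l belong to the same ubiquitin ligase complex around Hrd1. Herpud1, a gene known for strong stress induction, was not higher at day 1: it stood at 82.0, 84.5 and 75.5 CPM at day 0 and at 84.6, 73.9 and 63.8 CPM at day 1. Its highest mean was at day 7, with 103, 112 and 76.9 CPM, where the libraries overlapped day 0. No difference of Herpud1 was called in any comparison. Its window holds both an ERSE-II element and, on the other strand, the core TGATGCAA of the C/EBP-Atf response element (CARE) through which Atf4 is known to act (0.895% of all windows), so the 2 are shown.
Herpud1, chr8:94386372-94386392, plus strand: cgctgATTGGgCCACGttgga
Herpud1, chr8:94386312-94386329, plus strand: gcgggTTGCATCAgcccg

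Sel1l, the adaptor of the ligase, stood at 124, 108 and 113 CPM at day 0 and at 140, 133 and 118 CPM at day 1, with overlap. Its log2 fold change of 0.18 ± 0.14 (SE) was not called. The UPRE core TGACGTGG, the other known Xbp1 and Atf6 site, was in none of the 28 member windows and in 0.676% of all windows.

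The 3 translocation genes belong to the channel through which new proteins enter the endoplasmic reticulum. None of the 3 was called by edgeR at day 1, beside 7.58% of all genes. At that share the lack of a call among 3 genes does not set them apart. At an unadjusted p under 0.05 there were 2, and DESeq2 called Sec61b. Sec61b, a small subunit of the channel, stood at 100, 85.6 and 80.0 CPM at day 0 and at 103, 114 and 116 CPM at day 1, with a log2 fold change of 0.32 ± 0.11 (SE). Its 3 day 1 libraries were above day 0. The pore subunit Sec61a1 had a log2 fold change of 0.28 ± 0.12 (SE) and the accessory protein Ssr1 one of 0.20 ± 0.12 (SE). For both, day 0 replicate 1, at 205 and 238 CPM, lay within the day 1 range. Without that library Sec61a1 and Sec61b were called at day 1.

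No gene of the sensors themselves was called at day 1 by edgeR or DESeq2, beside 7.58% of all genes by edgeR. At that share the lack of a call among so few genes does not set them apart. Ern1 stood at 33.9, 33.7 and 40.2 CPM at day 0 and at 35.0, 30.7 and 28.5 CPM at day 1. Eif2ak3 stood at 39.7, 40.8 and 41.0 CPM at day 0 and at 37.4, 37.6 and 32.4 CPM at day 1, all 3 below day 0, and it is the 1 member of 32 with wholly lower libraries at that time. Neither difference was called. At day 7 Ern1 stood at 31.4, 26.6 and 21.4 CPM, wholly below day 0, with a log2 fold change of -0.44 ± 0.14 (SE). EdgeR did not call it, while DESeq2 called it lower, as did edgeR without day 7 replicate 1. Both genes were lowest in day 7 replicate 3, at 21.4 and 26.1 CPM, and next lowest for Ern1 in day 5 replicate 2, at 26.5 CPM, as for Eif2ak3 at 27.2 CPM.

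Atf6 was the member called lower at day 7 by edgeR, and DESeq2 called it lower together with Ern1. It stood at 81.4, 71.1 and 76.6 CPM at day 0, at 86.1, 79.3 and 76.7 CPM at day 1, at 74.3, 75.0 and 80.6 CPM at day 3, at 71.9, 63.9 and 71.3 CPM at day 5, and at 63.6, 59.2 and 57.1 CPM at day 7. The day 7 libraries were below every other library of the course. The log2 fold change against day 0 was -0.35 ± 0.08 (SE). The call was lost when any 1 of the 3 day 0 libraries, day 7 replicate 2 or day 7 replicate 3 was left out, while the direction was the same in each fit.

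Xbp1, whose product drives chaperone and secretory genes, stood at 248, 181 and 169 CPM at day 0 and at 274, 259 and 230 CPM at day 1. Day 0 replicate 1 lay inside the day 1 range, and the log2 fold change of 0.35 ± 0.13 (SE) was not called. It was called without that library. At the 3 later times Xbp1 stood between 189 and 232 CPM, within the day 0 range. The counts do not separate its spliced from its unspliced mRNA.

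None of the 7 genes of the Atf4 branch was called by edgeR in any comparison. Against day 0, 7.58% of all genes were called at day 1, 0.788% at day 3, 0.502% at day 5 and 7.05% at day 7. At such shares a count of 0 among 7 genes does not set the branch apart. At an unadjusted p under 0.05 there were 2 of the 7 at day 1, 1 at day 3, 0 at day 5 and 1 at day 7, and DESeq2 called Asns at day 1 and Trib3 at day 3. The median log2 fold change of the 7 was 0.40 at day 1, beside -0.01 over all genes, and 6 of the 7 had a positive value. Atf4 itself stood at 183, 182 and 163 CPM at day 0 and at 216, 199 and 164 CPM at day 1, with a log2 fold change of 0.13 ± 0.14 (SE). Ddit3, which encodes the pro-apoptotic factor CHOP, stood at 15.3 ± 1.23 CPM at day 0 and at 14.6 ± 2.45 CPM at day 1 (SD, n = 3), a log2 fold change of -0.06 ± 0.17 (SE). For both genes the day 0 and day 1 libraries overlapped.

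Asns, which makes asparagine and is a classic Atf4 target, had the largest day 1 value of the branch. It stood at 27.9, 12.1 and 13.8 CPM at day 0 and at 39.1, 36.7 and 32.2 CPM at day 1, without overlap. The log2 fold change was 1.00 ± 0.29 (SE), and day 0 replicate 1 was higher than the other 2 day 0 libraries together. Asns was called when that library, or day 7 replicate 3, was left out. It stood at 25.4, 27.4 and 24.1 CPM at day 3 and at 15.2, 13.8 and 25.9 CPM at day 7, again with the highest day 7 value in replicate 3.

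Ppp1r15a, encoding GADD34, which restores translation by directing a phosphatase to eIF2 alpha, stood at 41.7, 24.6 and 23.7 CPM at day 0 and at 64.4, 42.1 and 40.4 CPM at day 1. The groups overlapped only at day 0 replicate 1, and the log2 fold change was 0.71 ± 0.28 (SE). Trib3, an inhibitor of Akt and of Atf4 itself, had its highest mean at day 3. It stood at 4.77, 5.47 and 3.89 CPM at day 0 and at 8.96, 7.21 and 7.80 CPM at day 3, with no overlap and a log2 fold change of 0.76 ± 0.24 (SE). Sesn2, a stress-induced inhibitor of mTORC1 signalling, stood at 23.8, 20.7 and 21.1 CPM at day 0 and at 27.0, 26.1 and 27.3 CPM at day 1, with no overlap and a log2 fold change of 0.29 ± 0.15 (SE). None of these 3 differences was called by edgeR with all libraries in the fit. Ppp1r15a was called at day 1 without day 0 replicate 1. Trib3 was called at day 3 by DESeq2, and by edgeR without both hair-keratin-rich libraries.

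**Figure D3:**
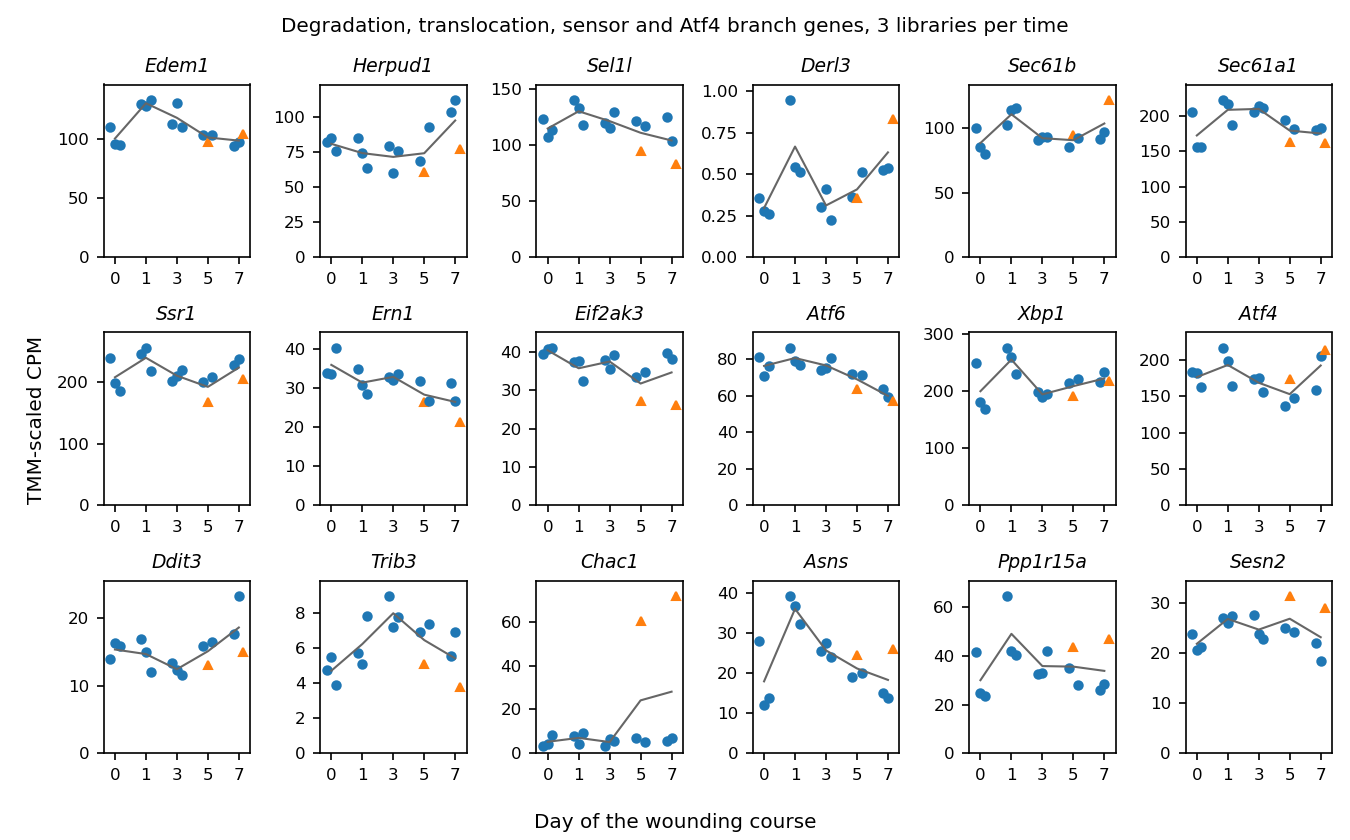
Each panel plots the scaled CPM of 1 of the other 18 members (vertical axis from 0) by day, with 1 point per library, a grey line through the means, and orange triangles for day 5 replicate 2 and day 7 replicate 3. Atf6 is lowest at day 7, and the Chac1 means of days 5 and 7 are set by 1 triangle each, at 60.2 and 71.5 CPM.

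Chac1, which breaks down glutathione and is a target of Atf4 and Ddit3, differed from all other members in how far 2 libraries stood above the rest. It stood at 3.24, 4.33 and 8.32 CPM at day 0, at 7.92, 4.11 and 9.20 CPM at day 1, and at 3.18, 6.67 and 5.63 CPM at day 3. At day 5 it stood at 6.96, 60.2 and 5.30 CPM and at day 7 at 5.70, 7.06 and 71.5 CPM. The libraries at 60.2 and 71.5 CPM are the 2 that were rich in hair keratins, and the other 13 libraries ran from 3.18 to 9.20 CPM. The log2 fold changes of 2.19 ± 1.07 (SE) at day 5 and 2.41 ± 1.08 (SE) at day 7 were therefore set by 1 library each and were not called. Over the settings tried they ran from 0.21 to 2.93 and from 0.27 to 3.15. The Chac1 window holds the core of the C/EBP-Atf response element on the other strand.
Chac1, chr2:119351044-119351061, plus strand: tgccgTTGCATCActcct

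Of the 32 members, Chac1 and Sesn2 were above the 13 other libraries in both hair-keratin-rich libraries, Sesn2 by a small margin at 31.3 and 29.0 CPM against 18.5 to 27.5 CPM. Dnajc3, Sel1l, Ern1 and Eif2ak3 were below the 13 others in both. Hspa5 was not apart in them, at 412 and 757 CPM against 344 to 1008 CPM. The part of the hair keratin content in these values was not tested.

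**Figure D4:**
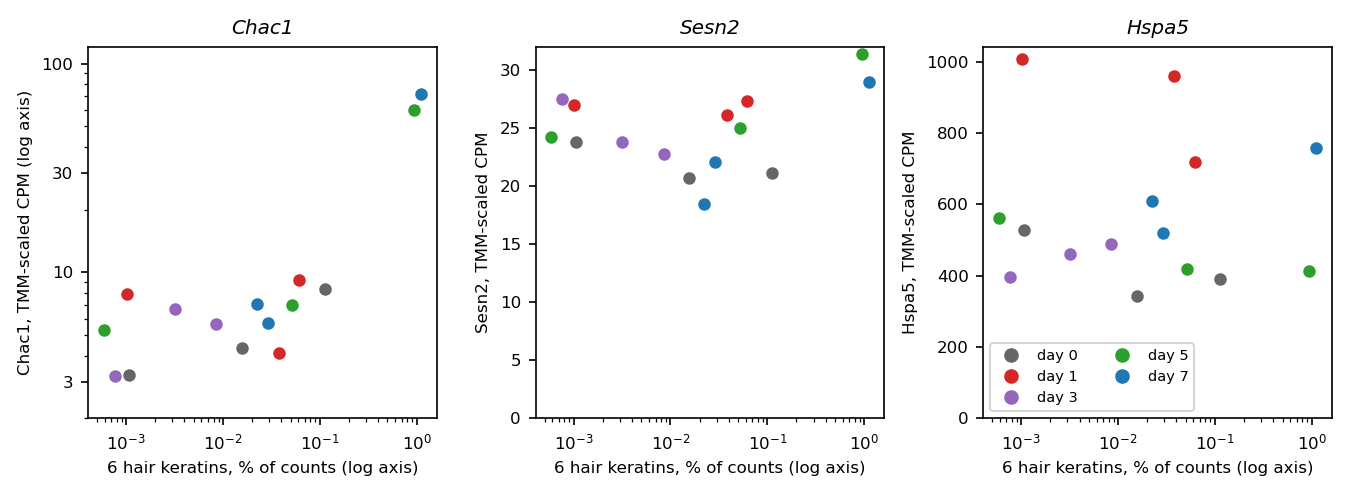
The scaled CPM of Chac1 (log axis), Sesn2 and Hspa5 is plotted against the share of counts in 6 hair keratins (percent, log axis), with 1 point per library coloured by day. The points at 0.947% and 1.11% are far above the rest for Chac1 and at the top for Sesn2, and lie among the others for Hspa5.

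The chaperones and the Atf4 branch were set side by side as the mean log2 CPM of each set in each library, less the set's day 0 mean. At day 1 the 14 chaperones and folding enzymes stood at 0.86, 0.84 and 0.53 and the 7 Atf4 branch genes at 0.59, 0.28 and 0.42. The chaperone value was the higher of the pair in each day 1 library, with a difference of 0.31 on average and from 0.11 to 0.56 by library. With the median over genes in place of the mean the difference was 0.03, so its size rests on how the genes are summarised. No p is given, because the members were chosen with these levels known.

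On average the order was the other way at the later times. At day 3 the chaperones stood at 0.05 and the Atf4 branch at 0.21, a difference of -0.16 with all 3 libraries below 0. At day 5 the difference was -0.34, ranging from -0.80 to 0.01 by library, and at day 7 it was -0.12, ranging from -0.43 to 0.11. The lowest value at days 5 and 7 came from the hair-keratin-rich library of each time, where the Atf4 branch stood at 0.74 and 0.79 while its other libraries of those days stood between 0.04 and 0.20. Without day 5 replicate 2 the day 5 difference was -0.11, and without day 7 replicate 3 the day 7 difference was 0.03.

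**Figure D5:**
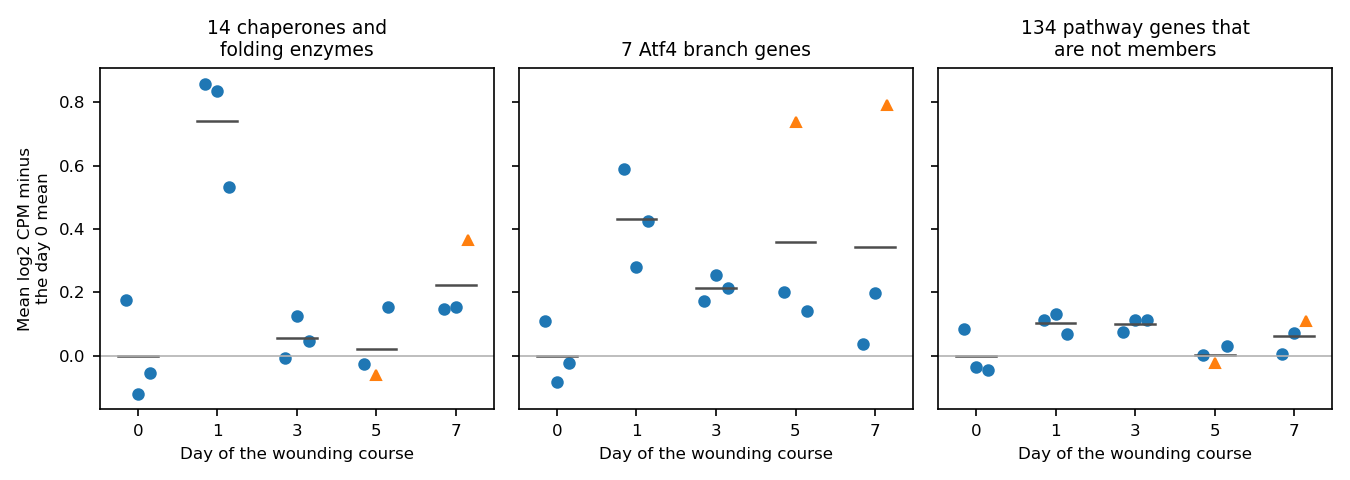
The mean log2 CPM of 3 gene sets, less each set's day 0 mean, is plotted by day with 1 point per library and a dark bar at the mean: 14 chaperones and folding enzymes, 7 Atf4 branch genes and 134 pathway genes that are not members. The chaperones stand at 0.53 to 0.86 at day 1, the Atf4 branch has its 2 highest points in the orange hair-keratin-rich libraries, and the other pathway genes stay between -0.05 and 0.13.

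The wider pathway, 134 genes in 5 lists of which 132 were tested, had smaller differences as a whole than the members. The members were selected on their levels in these same libraries, so that contrast is a description and no result about the pathway. At day 1, 15 of the 132 (11.4%) were called, 10 higher and 5 lower, beside 7.58% of all genes (4.22% higher and 3.36% lower). The median log2 fold change was 0.12, beside -0.01 over all genes. DESeq2 called 33 of them, 27 higher and 6 lower. Leaving out a day 0 library gave 32 calls (replicate 1), 0 (replicate 2) or 1 (replicate 3). Leaving out a day 1 library gave 1 (replicate 1), 7 (replicate 2) or 6 (replicate 3), and leaving out day 7 replicate 3 gave 27. No share over all genes is given beside these counts either. At days 3 and 5 no gene of the lists was called by edgeR, beside 0.788% and 0.502% of all genes. At an unadjusted p under 0.05 there were 21 and 20, and DESeq2 called 9 and 7. At day 7 there were 4 calls (3.03%, beside 7.05% of all genes), each lost in most of the 15 fits that left out 1 library. Over the time course there were 23 (17.4%, beside 13.9% of all genes). The lists share no gene with the members and were taken from general knowledge of the pathway.

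Among 29 other chaperones and folding enzymes, edgeR called 3 higher and 2 lower at day 1, beside 4.22% and 3.36% of all genes. Of the 29 log2 fold changes, 17 were positive and 12 negative, and DESeq2 called 4 higher and 3 lower. Hspa13, an Hsp70 relative, and the isomerase-type genes P4hb and Erp44 were called higher by edgeR. Fkbp7 and the calcium-binding protein gene Rcn3 were called lower. Fkbp7, a prolyl isomerase, went from 82.7 ± 14.4 CPM to 43.7 ± 8.80 CPM (SD, n = 3), a log2 fold change of -0.92 ± 0.20 (SE) with an adjusted p of 0.0207 by edgeR. Cnpy3, a chaperone of Toll-like receptors, and Uggt1, which senses unfolded glycoproteins, were called over the time course and not at day 1. Txndc5, another isomerase, had a log2 fold change of 0.30 ± 0.08 (SE) at day 7, with an adjusted p of 0.0483 by edgeR that held in 2 of the 15 fits without 1 library.

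Of the 28 tested translocon and signal peptidase genes, edgeR called 3 higher at day 1 and none lower, beside 4.22% and 3.36% of all genes. DESeq2 called 13 higher and none lower, and the list's median log2 fold change was 0.24. The day 1 libraries of 18 of them were wholly above day 0, beside the 19.8% of all genes given above. The signal peptidase subunit Spcs3 went from 96.1 ± 8.74 CPM to 148 ± 17.9 CPM (SD, n = 3), a log2 fold change of 0.62 ± 0.11 (SE) with an adjusted p of 0.0111 by edgeR. Spcs2, of the same enzyme, rose by 0.51 ± 0.10 (SE), with an adjusted p of 0.0152 by edgeR, and Rpn1, an oligosaccharyltransferase subunit, was the third. The oligosaccharyltransferase subunits Ddost and Rpn2 were called over the time course but not at day 1. Of 20 other ERAD genes, Derl2 alone (5% of the list, beside 7.58% of all genes) was called at day 1 by edgeR. Its log2 fold change was 0.30 ± 0.07 (SE), and DESeq2 called 4 of the list higher: Derl2, Ube2j1, Ubxn4 and Vcp. Sel1l3, a gene named for its likeness to Sel1l, was called over the time course by edgeR and DESeq2, and Herpud2 by DESeq2 alone.

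Of 19 tested sensors and transcription factors outside the members, edgeR called 2 lower and none higher at day 1. Beside these stand 3.36% of all genes called lower and 4.22% called higher. The log2 fold changes were positive for 10 of the 19 and negative for 9. The day 1 libraries lay wholly above day 0 for 7 and wholly below for 3, beside 19.8% and 18.1% of all genes. Creb3l1 encodes a membrane-bound transcription factor related to Atf6 and known for driving collagen secretion. It stood at 108, 118 and 92.4 CPM at day 0 and at 38.7, 59.5 and 41.3 CPM at day 1. The groups did not overlap, and the log2 fold change was -1.19 ± 0.20 (SE), with an adjusted p of 0.00999 by edgeR. Mbtps1, the protease that cuts Atf6 and Creb3l1, fell by 0.43 on the log2 scale, with an adjusted p of 0.0188 by edgeR. Eif2ak2, the RNA-sensing eIF2 alpha kinase, had a log2 fold change of -0.58 ± 0.16 (SE) at day 7, a call that held in 3 of the 15 fits without 1 library. The phosphatase subunit Ppp1r15b was called over the time course alone. Creb3l1, Fkbp7 and Rcn3 were lower at day 1, when 3 collagen genes among the fibroblast markers were lower too, Dcn and Lum were near their day 0 means and Pdgfra was higher. The part of fibroblast content in their levels was not tested.

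Among 36 other Atf4 targets, edgeR called 3 higher and 1 lower at day 1, beside 4.22% and 3.36% of all genes. DESeq2 called 6 higher and 1 lower. The median log2 fold change was 0.23, with 26 values positive and 10 negative. Slc7a11, the cystine importer, went from 9.23, 2.38 and 4.84 CPM at day 0 to 45.7, 27.9 and 29.6 CPM at day 1. These did not overlap, and its log2 fold change of 2.64 ± 0.51 (SE) had an adjusted p of 0.0156 by edgeR. The asparaginyl-tRNA synthetase gene Nars rose by 0.49 ± 0.10 (SE), and Eif4ebp1, a translation inhibitor, by 0.66 ± 0.13 (SE), both on the log2 scale. Pycr1, which makes proline, fell by 1.17 on that scale. Atf5, a relative of Atf4, was called over the time course but not at day 1. Over the wider pathway, all lists together, the CARE core was in 10 of 127 windows of 104 genes (7.87%), beside 0.895% of all windows. No share is given for the Atf4 targets alone.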

How the data were processed

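The authors deposited 1 file of estimated counts per library, by gene symbol. The submitters' processing notes name kallisto 0.43. Its index, the annotation and build behind it, and the use of strand remain not given in the sources used. Reads shared with a near-identical copy, such as a listed pseudogene of Calr, may be split, so such levels are uncertain. Each file held 30307 rows, of which 26 carried dates in place of symbols and were left out (0.155% to 0.179% of counts). Counts were rounded and fitted with edgeR 4.0.16 in R 4.3.3 (limma 3.58.1): TMM scaling, expression filter with minimum count 10, and 1 robust quasi-likelihood model of 5 times over 15 libraries. Tests are two-sided for contrasts and without direction over the time course. The fit's common biological coefficient of variation was 30.9%. Each standard error is the log2 fold change over the root of its F. Scripts were tested on simulated data with less spread than this fit found, which checks the code and not the calls made here. Alternatives were DESeq2 1.42.0, other scaling, no filter, a replicate block and libraries left out. The members, lists and tests were chosen with earlier results of these data known. All members are named, as are the 4 genes of each other list with the smallest p over the time course, except 1 that is not reported here; genes named beyond these, all called at day 1, were chosen after their values were seen. RefSeq starts need not be those used by the authors.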

Additional observations from a re-analysis of the deposited data

How the results depend on the processing

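Leaving out libraries and changing the tool moved counts of calls more than sizes, and every called gene kept its direction in the settings run. Members called at day 1, 14 with all libraries, ran from 1 to 19 with 1 library left out and were 0 without both day 0 replicates 2 and 3, when the 1 day 0 library left is assumed to vary like the other groups, no gene at all was called and 11 members had an unadjusted p under 0.05. The 15 other pathway genes called at day 1 became 33 by DESeq2, 0 without day 0 replicates 2 and 3, 37 without both hair-keratin-rich libraries, and 0 to 32 with 1 library left out. At day 3 members called went from 0 to 2 by DESeq2, 1 without the hair-keratin-rich libraries and 0 to 4 with 1 left out, and other pathway genes from 0 to 9, 4 and 0 to 6. At day 5 DESeq2 called 1 member and 7 others, the fit without the hair-keratin-rich libraries 2 others, and fits with 1 library left out 0 members and 0 to 3 others. At day 7 the 2 members became 4 by DESeq2, 0 without day 0 replicates 2 and 3, 0 without the hair-keratin-rich libraries and 0 to 3 with 1 left out. The 4 others at day 7 became 0 without a filter, 21 by DESeq2, 0 without day 0 replicates 2 and 3, 1 without the hair-keratin-rich libraries and 0 to 11 with 1 left out. Between days 1 and 3 the 1 member became 13 by DESeq2, 11 without the hair-keratin-rich libraries and 0 to 3 with 1 left out; between later times it was 0 throughout. Over the time course members ran from 7 to 19 around 16 with 1 left out, and the 23 others became 52 by DESeq2, 9 without day 0 replicates 2 and 3, 44 without the hair-keratin-rich libraries and 6 to 35 with 1 left out. The chaperone less Atf4 branch difference was 0.0284 at day 1 and -0.306 at day 3 by the median over genes, -0.228 at day 3 without day 0 replicates 2 and 3, and with 1 library left out it ran from 0.189 to 0.413 (day 1), -0.178 to -0.125 (day 3), -0.513 to -0.107 (day 5) and -0.235 to 0.034 (day 7). With the replicate number as a block, members called at day 1 were 13 and over the time course 14, while other pathway genes fell to 0 at day 7 and 13 over the time course. Whether the numbers pair the samples is not known. Deviations of same-numbered libraries correlated from -0.682 to 0.452 (median 0.075, 12 of 30 pairs over 0.1). Those of different numbers ran from -0.551 to 0.737 (median -0.0219, 16 of 60 pairs over 0.1), and such overlapping ranges do not settle it. Except where fewer samples show it, the cause was not tested. Of 14 members called at day 1, Pdia4 was called in every fit with 1 library left out, as were 6 of 16 over the time course. Counting error is small at these depths except for Derl3.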
